A study of Homo sapiens with 6 samples.

Results

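RNA interference needs a small set of proteins, and the genes of 10 of them were followed in anaplastic thyroid cancer cells that had taken up a small interfering RNA (siRNA). The genes were the Argonautes AGO1, AGO2, AGO3 and AGO4, the GW182 proteins TNRC6A, TNRC6B and TNRC6C, and DICER1, DROSHA and XPO5 of microRNA processing and export. They were taken by symbol, and all 10 were found once each among the 32985 genes of the deposited table. The cells were 8505C, an established human line of anaplastic thyroid cancer, in 2 groups of 3 libraries. Cells of the siCtrl group were wild type (labelled WT) and received a control siRNA, cells of the siNUF2 group received siRNA against the kinetochore gene NUF2 (labelled NUF2 knockdown), and both are labelled 24 h. Both groups thus carried a transfected siRNA, no untransfected cells were analysed here, and the study's methods list 1 sequence of siRNA against NUF2.

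In the textbook pathway, DROSHA cuts the primary microRNA transcript in the nucleus, exportin-5 (XPO5) carries the hairpin to the cytoplasm, and DICER1 cuts it to a short duplex. An Argonaute takes up 1 strand and uses bases 2 to 8 of it, the seed, to find target mRNAs, and AGO2 is the Argonaute known for cutting a fully paired target. GW182 proteins bind Argonautes and recruit deadenylases, and a synthetic siRNA enters this route at the Argonaute, after DICER1. The libraries were made from poly(A) RNA, so mature microRNAs were not measured.

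The total count was between 61257859 and 69755291 per library. NUF2 went from 13.9 ± 1.41 to 1.71 ± 0.290 FPKM, fragments scaled to transcript length and library size (mean ± SD, n = 3 in each group), so that 12.4% remained. The quasi-likelihood test of edgeR gave NUF2 a log2 fold change of -2.99 (standard error 0.17) and an adjusted p of 5.1e-04. Of the thyroid lineage markers, NKX2-1 was at 14.6 to 21.5 FPKM, PAX8 at 0.379 to 0.774 FPKM, and TG, SLC5A5 and FOXE1 were at or near 0, which describes a line of thyroid label without the hormone synthesis genes. VIM, a mesenchymal filament gene, was at 452 to 521 FPKM, and KRT8 and KRT18 of simple epithelia were at 72.0 to 205 FPKM. The epithelial genes EPCAM and CDH1 were low, at most at 0.243 and 0.0227 FPKM. PTPRC of leukocytes was at most at 0.518 FPKM. Of 6 markers of blood and vessel cells, PTPRC among them, 4 stayed under 1 FPKM in every library. CD68 was at 3.48 to 6.82 FPKM, and HBB reached at most 12.4 FPKM. The summed level of the 6 markers was 4.03 to 20.1 FPKM in siCtrl and 5.32 to 9.58 FPKM in siNUF2 libraries. The labels do not say that the libraries came from separate cultures, so p-values measure the spread between these libraries only.

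Among the 10 genes, DICER1 stood out. It fell 2.51-fold in siNUF2 cells (95% interval from 2.17-fold to 2.90-fold), while the other 7 genes that could be tested had log2 fold changes between -0.47 and 0.31 that did not pass the test. Testing covered the 11725 genes with a mean of at least 1 FPKM over all 6 libraries, and a gene was called at an adjusted p under 0.05. By that rule 3.99% of all genes tested were called, 2.46% as lower and 1.53% as higher in siNUF2 cells, and of the interference genes 1 of 8 was called as lower and 0 as higher. TNRC6B and TNRC6C were under the minimum of 1 FPKM, TNRC6B with a mean of 0.848 FPKM over all libraries but 1.02 FPKM in siCtrl cells. They were fitted without a filter, where 0.570% of all genes were called (0.367% lower, 0.203% higher) and DICER1 was the only one of the 10. In 5 of the 10 genes all siNUF2 libraries lay below all siCtrl libraries in FPKM (AGO2, TNRC6A, TNRC6B, TNRC6C and DICER1), and in 1 (DROSHA) all lay above. Of the genes tested, 13.4% were separated in the first way and 10.5% in the second, and over all genes of the table the shares were 7.33% and 5.99%.

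**Figure D1:**
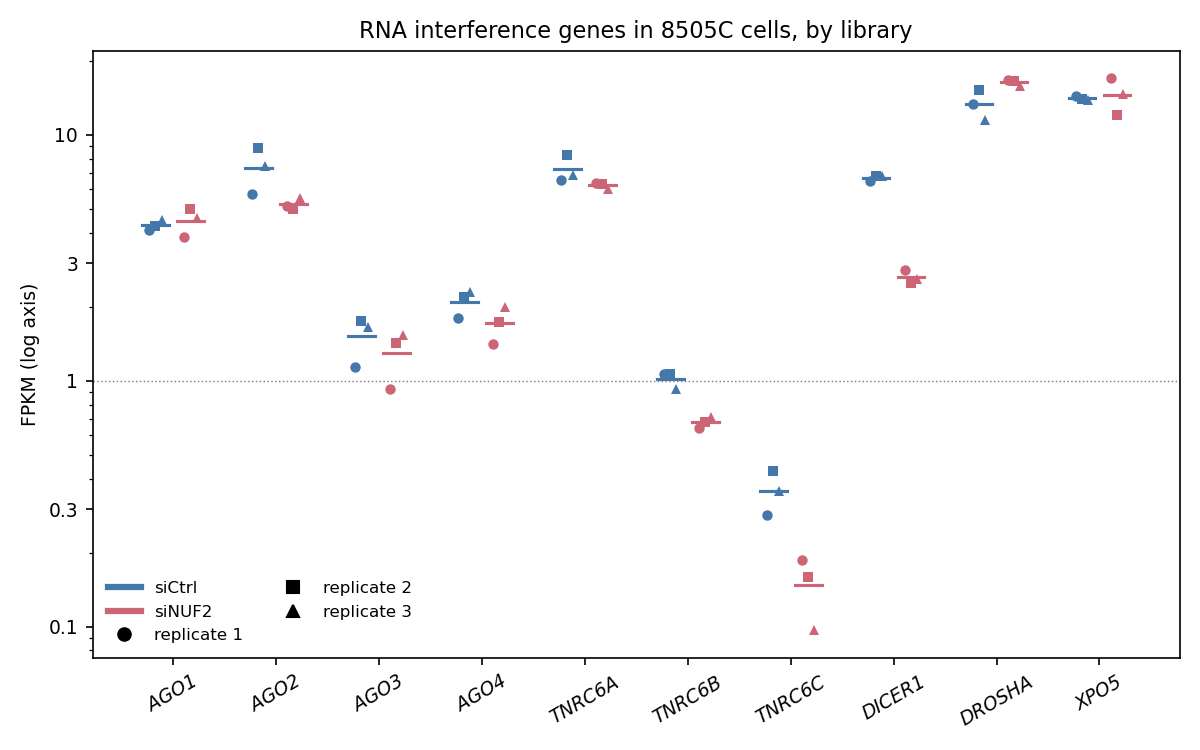
FPKM on a log axis (vertical) for each gene (horizontal) in the 3 siCtrl and 3 siNUF2 libraries, with the replicate number as the point shape, the group mean as a bar and the minimum of 1 FPKM as a dotted line. DICER1 lies between 6.50 and 6.80 FPKM in siCtrl and between 2.49 and 2.81 FPKM in siNUF2 libraries, and TNRC6B and TNRC6C lie near or under 1 FPKM.

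In control cells the levels per transcript length spanned XPO5 at 14.1 ± 0.257 FPKM to TNRC6C at 0.357 ± 0.0730 FPKM (SD, n = 3). DROSHA came second with 13.4 ± 1.87 FPKM, and its range over the libraries overlapped that of XPO5. AGO2 (7.36 ± 1.53 FPKM), TNRC6A (7.24 ± 0.935 FPKM) and DICER1 (6.70 ± 0.175 FPKM) followed, and neighbours in this trio overlapped as well. Below them AGO1 (4.30 ± 0.204 FPKM), AGO4 (2.09 ± 0.264 FPKM), AGO3 (1.52 ± 0.329 FPKM), TNRC6B (1.02 ± 0.0804 FPKM) and TNRC6C were each separated from the next. The median control level of the genes tested was 6.01 FPKM, and 5 of the 10 genes were above it. In siNUF2 cells DROSHA had the highest mean (16.4 FPKM), and DICER1 (2.63 FPKM) came after AGO1 (4.48 FPKM) instead of before it.

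The enzymes of microRNA processing lay on opposite sides of their controls in FPKM. DICER1 (ENSG00000100697), the cytoplasmic ribonuclease that releases the microRNA duplex, lies on the minus strand of GRCh38 at chr14:95086228-95157529. Its level was 6.50, 6.80 and 6.80 FPKM in siCtrl libraries 1 to 3, against 2.81, 2.49 and 2.59 FPKM after siNUF2. The libraries of each group lay close together and the groups were far apart, with 39.2% of the control level left. These levels rested on 6412 to 6982 counts in control and 2367 to 2763 counts in knockdown libraries. The log2 fold change was -1.33 (standard error 0.09, 95% interval -1.54 to -1.12), with an adjusted p of 9.9e-04 from edgeR, and it ranked 48 of 11725 genes from the lowest. Within replicate numbers 1, 2 and 3 the log2 difference was -1.201, -1.41 and -1.37. The microRNA gene MIR3173 was the only other gene of the table inside DICER1, on the same strand.

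DROSHA (ENSG00000113360), the nuclear ribonuclease of the first cut, lies at chr5:31400497-31532196 on the minus strand. It had 13.3, 15.3 and 11.5 FPKM in siCtrl against 16.8, 16.6 and 15.8 FPKM in siNUF2 libraries, so that the siNUF2 libraries were the higher ones without overlap. Its log2 fold change was 0.31 (standard error 0.12, interval 0.05 to 0.58) and missed the threshold, with an adjusted p of 0.205 from edgeR. With the replicate number as a block it passed, at 0.32 and an adjusted p of 0.0402 in edgeR, a fit in which 14.5% of all genes tested were called (7.91% lower, 6.64% higher). That fit on the larger gene set of the count filter of edgeR gave DROSHA an adjusted p of 0.0626, so the call was lost there. XPO5 (ENSG00000124571), the exporter of hairpin precursors, had 14.4, 13.98 and 13.9 FPKM in siCtrl and 16.99, 12.05 and 14.6 FPKM in siNUF2 libraries. Its siNUF2 libraries scattered on both sides of the controls, and the interval of its log2 fold change of 0.07 ran from -0.22 to 0.35 (adjusted p = 0.842 in edgeR). XPO5 overlaps POLR1C on the other strand and entries named AL355802 on both strands, and whether the authors counted by strand is not given in the sources used here.

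The levels of the 3 processing genes were also added up in each library. The sum of DICER1, DROSHA and XPO5 was 34.2 ± 1.90 FPKM in siCtrl and 33.6 ± 2.76 FPKM in siNUF2 cells (SD, n = 3; exact permutation test, two-sided, p = 0.8). The share of DICER1 in this sum was 19.0%, 18.9% and 21.1% in siCtrl, against 7.68%, 7.99% and 7.85% in siNUF2 libraries. DROSHA held 39.0 ± 3.29% of it in siCtrl and 49.0 ± 3.87% in siNUF2 cells, without overlap between the libraries. For both shares the exact permutation test gave p = 0.1, the smallest that 3 libraries against 3 allow, and 0.167 after Benjamini-Hochberg adjustment over the 10 shares. The shares of a group add up to the whole, so a lower DICER1 share raises the others, and the DROSHA share is no separate evidence. In FPKM, DROSHA was 2.00 times as abundant as DICER1 in control cells and 6.25 times in siNUF2 cells on average.

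**Figure D2:**
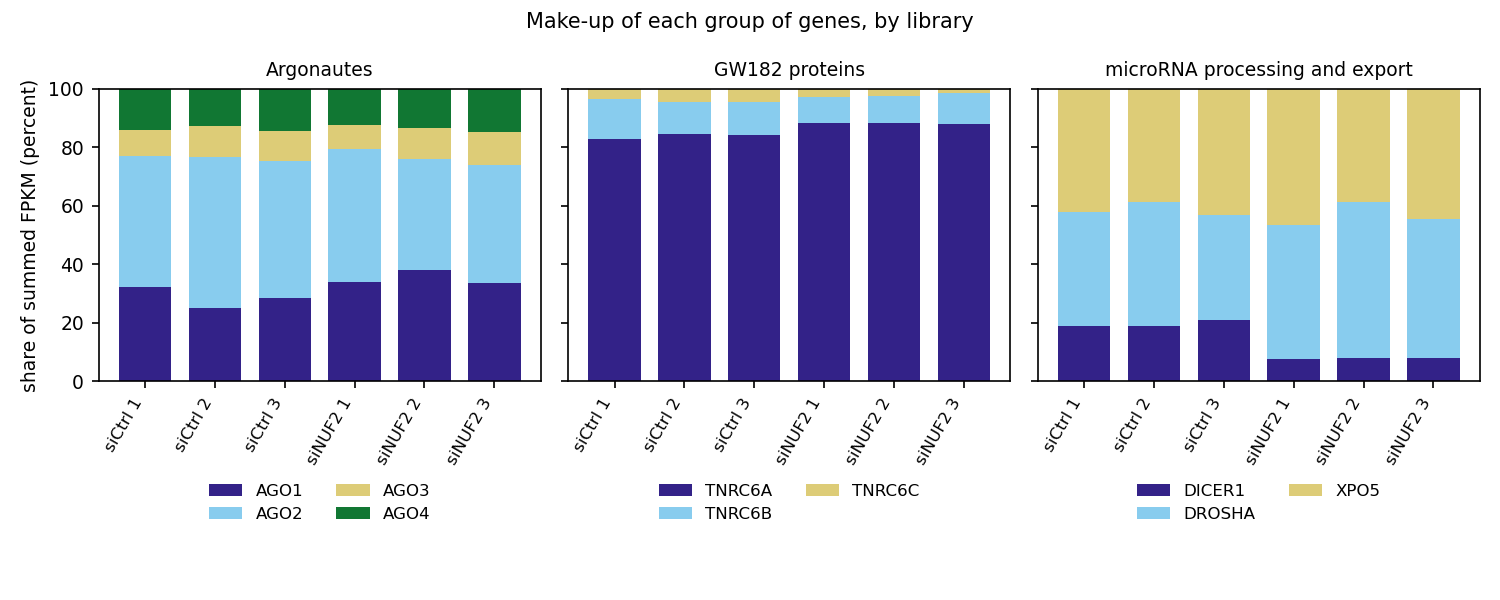
Share of each gene in the summed FPKM of its group (vertical, percent) in each of the 6 libraries (horizontal), for Argonautes, GW182 proteins and the genes of processing and export. The DICER1 part shrinks from 19.0%, 18.9% and 21.1% in siCtrl to 7.68%, 7.99% and 7.85% in siNUF2 libraries, and TNRC6A makes up between 83.0% and 88.5% of the GW182 level throughout.

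Among the Argonautes, the effector proteins that hold the guide strand, AGO2 (ENSG00000123908, chr8:140520156-140635633) was the most abundant in control cells and had the most negative log2 fold change. It had 5.77, 8.82 and 7.48 FPKM in siCtrl libraries and 5.14, 5.00 and 5.53 FPKM in siNUF2 libraries. The siNUF2 libraries were the lower ones, though siCtrl library 1 was close to them. The log2 fold change of -0.47 (standard error 0.15, interval -0.82 to -0.13) did not pass, with an adjusted p of 0.149 from edgeR. It passed with the number as a block (-0.45, adjusted p = 0.0409 in edgeR) and in DESeq2 (-0.48, adjusted p = 0.0399), which called 8.29% of all genes tested (4.81% lower, 3.48% higher). With the block and the count filter of edgeR it did not pass (adjusted p = 0.0689). Without siCtrl library 1 it was -0.62 (adjusted p = 0.0624 in edgeR) and without siCtrl library 2 it was -0.32 (adjusted p = 0.305).

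AGO1, AGO3 and AGO4 lie side by side on the plus strand of chromosome 1, with AGO4 (chr1:35808016-35857890) first, then AGO1 (chr1:35869808-35930532) and AGO3 (chr1:35930718-36072500). AGO1 (ENSG00000092847) had 4.12, 4.27 and 4.52 FPKM in siCtrl and 3.85, 4.98 and 4.60 FPKM in siNUF2 libraries, and the groups overlapped. Its log2 fold change was 0.08 with an interval from -0.20 to 0.35 (adjusted p = 0.797 in edgeR). AGO3 (ENSG00000126070) had 1.14, 1.75 and 1.66 FPKM in siCtrl and 0.927, 1.43 and 1.54 FPKM in siNUF2 libraries. AGO4 (ENSG00000134698) had 1.79, 2.18 and 2.30 FPKM in siCtrl and 1.40, 1.74 and 2.00 FPKM in siNUF2 libraries. In both genes library 1 was the lowest of each group, and the groups overlapped. The log2 fold changes were -0.20 (interval -0.74 to 0.33) for AGO3 and -0.26 (interval -0.69 to 0.16) for AGO4, with adjusted p of 0.718 and 0.524 in edgeR.

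In counts scaled to library size, AGO3 and AGO4 followed the replicate number. Library 1 was below its group mean by a log2 deviation of -0.39 in siCtrl and -0.47 in siNUF2 cells for AGO3, and of -0.22 and -0.29 for AGO4. All 3 replicate numbers deviated to the same side in both groups for AGO3, AGO4 and DROSHA, 2 of them for AGO1, AGO2, TNRC6A and XPO5, 1 for TNRC6B and TNRC6C and 0 for DICER1. For DROSHA some of these deviations were very small, at 0.0026 in siCtrl library 1 and 0.019 in siNUF2 library 1. The share of all genes with such a pattern was not counted. Within every replicate number the siNUF2 library had less AGO3 (log2 differences -0.29, -0.26 and -0.09) and less AGO4 (-0.34, -0.29 and -0.18). With the number as a block the adjusted p in edgeR was 0.190 for AGO3 and 0.193 for AGO4, so neither passed.

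The 4 Argonautes together amounted to 15.3 ± 2.19 FPKM in siCtrl and 12.7 ± 1.23 FPKM in siNUF2 cells (SD, n = 3; exact permutation test, two-sided, p = 0.3), and the libraries overlapped. Within replicate numbers 1, 2 and 3 the sum was lower after siNUF2 each time, at 11.3 against 12.8, 13.1 against 17.03 and 13.7 against 15.96 FPKM, and 3 pairs cannot give a sign-flip p below 0.25. AGO1 made up 28.5 ± 3.53% of that sum in siCtrl and 35.2 ± 2.34% in siNUF2 cells, with no overlap (exact permutation p = 0.1, 0.167 after adjustment over the 10 shares). AGO2 made up 47.9 ± 3.52% and 41.3 ± 3.75%, where siNUF2 library 1 (45.4%) was above siCtrl library 1 (45.0%). AGO3 stayed near 10% (9.86 ± 0.833% and 10.1 ± 1.67%), and AGO4 held 13.7 ± 0.808% and 13.4 ± 1.13%. These shares also add up to the whole, so they are not separate from one another.

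Transcripts of the GW182 proteins, which link an Argonaute to the deadenylases, all had a lower mean FPKM in siNUF2 cells. TNRC6A (ENSG00000090905, chr16:24610209-24826218) had 6.57, 8.31 and 6.85 FPKM in siCtrl and 6.35, 6.31 and 6.05 FPKM in siNUF2 libraries. The siNUF2 libraries were just under the lowest control, and the log2 fold change of -0.20 (interval -0.45 to 0.06) did not pass (adjusted p = 0.415 in edgeR). TNRC6B (ENSG00000100354, chr22:40044817-40335808) had 1.06, 1.07 and 0.925 FPKM in siCtrl and 0.641, 0.680 and 0.713 FPKM in siNUF2 libraries. These groups were well apart, with 994 to 1729 counts per library behind the low FPKM. Its log2 fold change without a filter was -0.56 (standard error 0.13, interval -0.86 to -0.26) at an adjusted p of 0.161 in edgeR.

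TNRC6C (ENSG00000078687, chr17:77959240-78108835) was the scarcest of the 10, with 0.283, 0.429 and 0.357 FPKM in siCtrl and 0.187, 0.159 and 0.0965 FPKM in siNUF2 libraries. Every siNUF2 library was lower, on 78 to 163 counts against 257 to 389. The log2 fold change was -1.25 with a wide interval (-2.002 to -0.491) and did not pass without a filter (adjusted p = 0.234 in edgeR). In a fit added after these values were seen, with the filter on counts that edgeR offers and the replicate number as a block, TNRC6B (-0.56, adjusted p = 0.0428) and TNRC6C (-1.28, adjusted p = 0.0425) both passed, among 6.80% of all genes in that fit (3.82% lower, 2.97% higher). The same filter without the block gave adjusted p of 0.1005 and 0.123 in edgeR, where 1.60% of all genes were called (1.03% lower, 0.571% higher). By the study's own rule for differential expression, which takes a fold change of more than 2 with an unadjusted p and called 2.13% of all genes, TNRC6C passed beside DICER1. TNRC6C shares its region with TMC6 and TNRC6C-AS1 on the other strand and with AC015804 on its own strand, so reads of these genes may not be told apart.

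Summed over the family, the GW182 level was 8.62 ± 1.04 FPKM in siCtrl and 7.06 ± 0.179 FPKM in siNUF2 cells, with all siNUF2 libraries lower (exact permutation test, two-sided, p = 0.1). TNRC6A held 84.0 ± 0.890% of this sum in siCtrl and 88.3 ± 0.144% in siNUF2 cells. TNRC6B held 11.9 ± 1.34% and 9.62 ± 0.742%, and TNRC6C held 4.12 ± 0.465% and 2.08 ± 0.609%. Each share was separated between the groups (exact permutation p = 0.1, 0.167 after adjustment over the 10 shares). As they add up to the whole, these separations are not independent of one another.

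**Figure D3:**
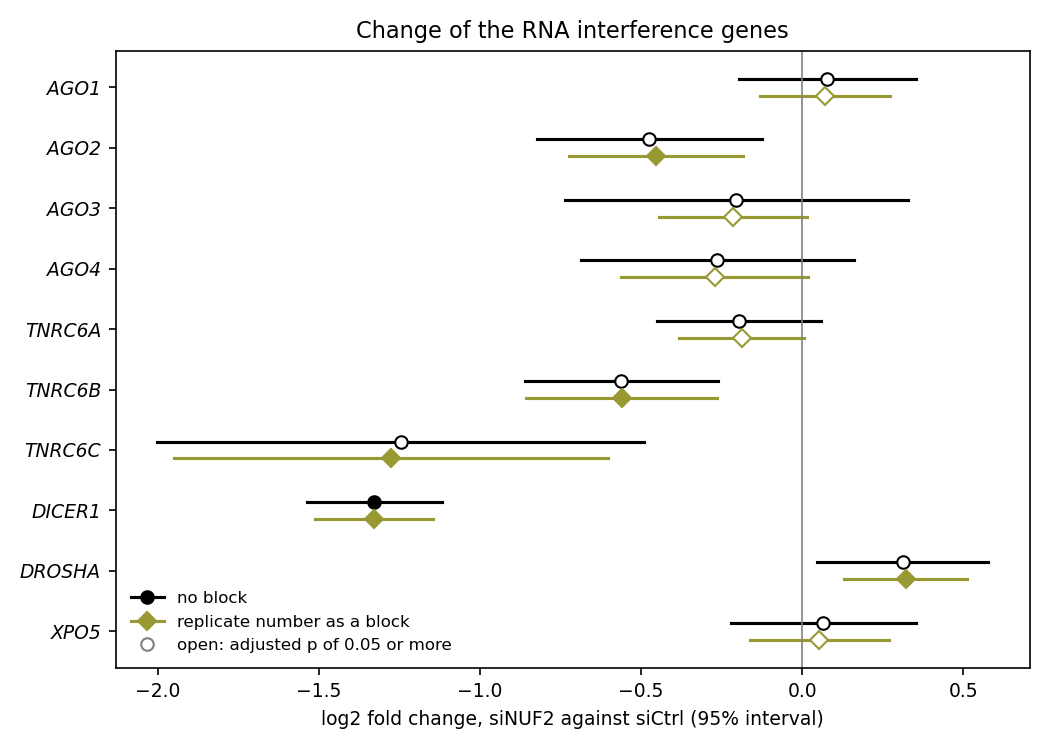
Log2 fold change of siNUF2 against siCtrl (horizontal, with its 95% interval) for each gene (vertical), without (circles) and with (diamonds) a block for the replicate number, where a filled symbol has an adjusted p under 0.05. TNRC6B and TNRC6C come from the fit without a filter (circles) and from the fit on counts filtered by edgeR (diamonds), and DICER1, at -1.33, is the only gene filled in both.

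The transcripts of these genes were also read for a sequence feature that their choice did not use. The antisense strand of the NUF2 siRNA listed in the study's methods pairs, by its positions 2 to 8, with the word TATGGAA. In the longest annotated 3′ UTR of each gene in GENCODE release 44 (coordinates in GRCh38), DICER1 and AGO3 held 2 copies, AGO4 and TNRC6B 1 copy, and the other 6 genes 0. The word is shown in capitals in each place, on the strand of the mRNA, because these are all its copies in the 3′ UTRs of the 10 genes.
DICER1, first copy, chr14:95087828-95087856, minus strand: accgaatgtaaTATGGAAaacctaccagt
DICER1, second copy, chr14:95087492-95087520, minus strand: ctgttttgattTATGGAAtttgaaaaaga
TNRC6B, chr22:40323587-40323615, plus strand: ttttcatgttaTATGGAAgttgttgctaa
AGO4, chr1:35853896-35853924, plus strand: agaagggtttcTATGGAAtattttgctag
AGO3, first copy, chr1:36061454-36061482, plus strand: tgttcttaaaaTATGGAAgttaaagattt
AGO3, second copy, chr1:36063513-36063541, plus strand: ataatttgttaTATGGAAgatttgctacc

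Of 19417 genes with a 3′ UTR of at least 50 nt, 16.1% held the word, and the share grew with length. The 3′ UTR of DICER1 has 6674 nt, and of 482 genes within 10% of that length 42.3% held the word. For AGO4 (4285 nt) the share at like length was 30.8%, for TNRC6B (12567 nt) it was 63.0%, and for AGO3 (16755 nt) it was 96.0%. The 3′ UTR of AGO2 (11888 nt) holds 0 copies where 67.0% of genes of like length hold it, and that of TNRC6A (7834 nt) holds 0 where 47.9% do. The 4 genes with the word had log2 fold changes of -1.33 (DICER1), -0.56 (TNRC6B), -0.26 (AGO4) and -0.20 (AGO3), of which that of DICER1 passed the test. The 6 genes without it had values from -1.25 (TNRC6C) to 0.31 (DROSHA). Searching the mRNA strand, this describes letters in annotated transcripts, and the part of the siRNA in any of these changes was not tested.

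The wider pathway was read from 93 genes in 6 lists, of which 75 were tested, 1 of them called as higher and 4 as lower in siNUF2 cells, where 1.53% and 2.46% of all genes tested were called in these directions. Whether the lists differ from that background was not tested. The silencing effectors that act after GW182 held most of these, with 3 of 30 tested genes lower, 1 higher and 26 not past the threshold, and a median log2 fold change of -0.01 against 0.01 over all genes tested. CNOT8, a catalytic deadenylase subunit of the CCR4-NOT complex, went from 14.3, 16.9 and 19.0 FPKM in siCtrl to 8.40, 9.36 and 10.3 FPKM in siNUF2 libraries. The groups did not overlap, and edgeR put the log2 fold change at -0.82 (standard error 0.14, adjusted p = 0.0176). CNOT6, the other kind of catalytic deadenylase of that complex, fell from 10.1, 12.2 and 11.6 FPKM to 7.63, 7.42 and 7.99 FPKM (log2 fold change -0.54, adjusted p = 0.0296 in edgeR). EIF4E2, a cap-binding protein that represses translation, fell from 10.8, 10.6 and 11.3 FPKM to 7.02, 6.22 and 7.35 FPKM (log2 fold change -0.65, adjusted p = 0.0127 in edgeR). In these 3 genes the control libraries were all above the siNUF2 libraries. EDC3, an enhancer of decapping, rose from 9.29, 10.6 and 9.83 FPKM to 16.1, 12.6 and 13.3 FPKM (log2 fold change 0.52, adjusted p = 0.0491 in edgeR).

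Of the genes of microRNA tailing and turnover, 1 of 11 tested fell and 10 did not pass. This was ZSWIM8, the substrate receptor of the ubiquitin ligase known for degrading Argonautes in target-directed microRNA decay. It had 5.39, 4.55 and 4.86 FPKM in siCtrl and 3.11, 2.52 and 3.07 FPKM in siNUF2 libraries, and edgeR put the log2 fold change at -0.74 (standard error 0.13, adjusted p = 0.0203). TUT7, a terminal uridylyltransferase, had the next largest value of this list at -0.26 (adjusted p = 0.421 in edgeR). ZSWIM8 overlaps ZSWIM8-AS1, and EDC3 overlaps CLK3, in the table.

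These 5 calls passed in fewer fits than that of DICER1. When each of the 6 libraries was left out in turn, DICER1 stayed past the threshold in all fits (adjusted p from 0.00630 to 0.00865 in edgeR), EIF4E2 in 3, CNOT8 in 2, CNOT6 in 1, and ZSWIM8 and EDC3 in 0. EDC3 was also not called by limma on either scale. Without siCtrl library 3 or siNUF2 library 1, 0 genes of the lists were called. The share of all genes called in these fits and by limma was not counted. Whether calls were lost more widely there is therefore not known. The 3′ UTR of CNOT6 holds the word TATGGAA in 2 copies and that of CNOT8 in 1 copy, and those of EIF4E2, ZSWIM8 and EDC3 hold 0. Uncalled genes of the lists hold it too, with log2 fold changes on both sides of 0. Examples are HNRNPA1 (2 copies, 0.18), ADAR (1 copy, 0.15), PRKRA (1 copy, -0.21) and TENT4A (1 copy, -0.12). The share of genes of like length with the word was 28.3% for CNOT6 and 10.8% for CNOT8. It was 23.6% for EIF4E2, 14.3% for ZSWIM8 and 17.7% for EDC3, and 18.3% over the genes tested that have a 3′ UTR. The part of the siRNA in these changes was not tested.

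**Figure D4:**
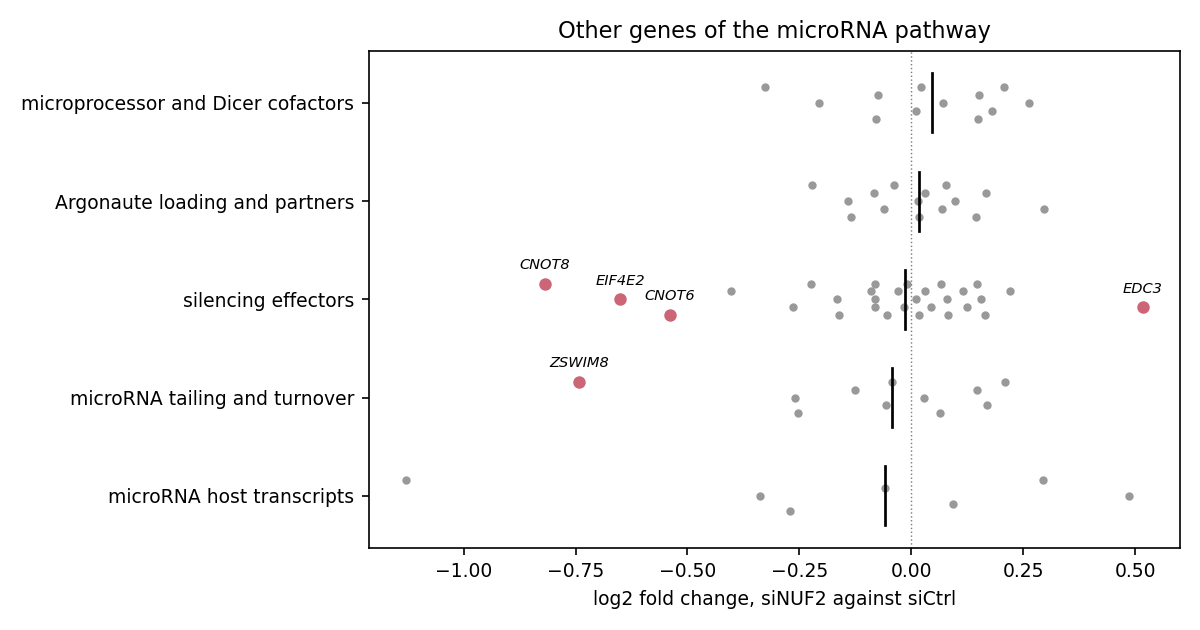
Log2 fold change of siNUF2 against siCtrl (horizontal) for every tested gene of 5 lists (vertical), with the median of a list as a black line and the genes with an adjusted p under 0.05 in colour and named. CNOT8 (-0.82), ZSWIM8 (-0.74), EIF4E2 (-0.65) and CNOT6 (-0.54) lie to the left and EDC3 (0.52) to the right, and the medians lie between -0.06 and 0.05.

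Of 12 cofactors of DROSHA and DICER1, such as DGCR8 and TARBP2, 0 passed in edgeR, with a median log2 fold change of 0.05, 1 gene at an unadjusted p under 0.05 and 1 gene called by DESeq2. Of all 11725 genes tested, 2129 had an unadjusted p under 0.05 in edgeR, and DESeq2 called 8.29%. ERH, a small partner of the nuclear cutting complex, had 181.9 ± 5.04 FPKM in siCtrl and 143 ± 6.79 FPKM in siNUF2 cells (SD, n = 3), or a log2 value of -0.33 (adjusted p = 0.0868 in edgeR). KHSRP, an RNA-binding protein of terminal loops, was at 0.26 on the same scale (adjusted p = 0.339 in edgeR). In the blocked fit, ERH (adjusted p = 0.0212) and KHSRP (adjusted p = 0.0389) passed in edgeR, as did CNOT6L of the effectors (-0.40, adjusted p = 0.0383), in a fit that called 14.5% of all genes tested. With the block on the gene set of the count filter, ERH still passed (adjusted p = 0.0325 in edgeR), while KHSRP (0.0585) and CNOT6L (0.0631) did not. Of 15 tested genes of Argonaute loading and of its partners, such as the HSP90 chaperones, 0 passed in edgeR, 0 had an unadjusted p under 0.05 and 0 were called by DESeq2. MOV10, a helicase that binds Argonautes, had the most negative value there (-0.22, adjusted p = 0.454 in edgeR).

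Transcripts that carry microRNAs gave 0 calls of 7 tested in edgeR, 0 at an unadjusted p under 0.05 (2129 of 11725 over all genes tested) and 0 in DESeq2. The most negative was MIR210HG, the host of miR-210, with 2.83, 3.63 and 6.50 FPKM in siCtrl and 0.888, 1.39 and 3.55 FPKM in siNUF2 libraries. Library 3 was the highest and library 1 the lowest of both groups, and the groups overlapped, although each siNUF2 library was below the siCtrl library of its number. In edgeR the log2 fold change was -1.13 without a block (standard error 0.52, adjusted p = 0.307) and -1.28 with one (adjusted p = 0.00659, or 0.0104 on the gene set of the count filter). The mature microRNA encoded there, at chr11:568112-568133 on the minus strand, is shown with its seed (bases 2 to 8) in capitals as given by RefSeq for GRCh38.p14, since its host is the only transcript of this list that passed in the blocked fit.
hsa-miR-210-3p: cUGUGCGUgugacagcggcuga

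DLEU2, the host of miR-15a and miR-16-1, was at 0.49 on that scale (adjusted p = 0.357 in edgeR), and it overlaps 6 other genes of the table. MIR22HG, MIR31HG and MIR222HG were between 2.28 and 10.0 FPKM over the 6 libraries and did not pass (adjusted p from 0.433 to 0.854 in edgeR). Of the PIWI proteins, Argonaute relatives of the germline, PIWIL2 was at most at 0.0713 FPKM and PIWIL4 at most at 0.0576 FPKM. PIWIL1 and PIWIL3 were not found by symbol among the genes of the table.

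Across the 6 libraries, the genes outside the family whose log2 CPM (counts scaled to library size) was most like that of AGO2 were MPP5, FZD6 and METTL16, with Pearson's r of 0.988, 0.988 and 0.985. For TNRC6B they were TMEM231 (0.994), ZCCHC4 (0.992) and FAM3C (0.991). A value of at least 0.95 was reached by 37 genes for AGO2 and by 150 for TNRC6B, so the genes named were not alone. The share of all genes that reached it is not given, so how common such values are was not shown. There were only 6 libraries in 2 groups, and they share depth and replicate number, so these values are a description only.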

How the data were processed

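Poly(A) RNA of 8505C cells was sequenced in 6 libraries, 3 per group. Per the study's methods, fastp served for read quality, HISAT2 for alignment (GRCh38) and StringTie for expression levels. Versions, annotation release, strand setting and the counting tool are not given in the sources used here. The authors deposited whole-number counts per gene and FPKM, which correct for the length of a transcript and for depth, and all 12 columns were used. Low counts widen the intervals, as for TNRC6C.

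Here the counts of genes with a mean of at least 1 FPKM were normalized by TMM and tested with edgeR 4.0.16 (glmQLFit, glmQLFTest) in R 4.3.3, adjusting by Benjamini-Hochberg over all genes tested. Genes under this minimum were fitted without a filter. Alternatives were DESeq2 1.42.0, limma 3.58.1 on log2(FPKM + 1) and log2(FPKM + 0.1), other filters and size factors, the study's rule for DEGs (fold change above 2 or below 0.5 with an unadjusted F-test p), the replicate number as a block and leaving out each library. Sums and shares were compared by exact permutation tests. The edgeR step was tested on simulated data of 11725 genes for siNUF2 against siCtrl. It recovered 94 of 100 genes changed by a log2 value of 2 and 72 of 100 changed by 1.2, with 10 false calls. The simulated counts held no effect of the replicate number, unlike the libraries.

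Replicate numbers were checked by correlating deviations from the group means. Libraries of the same number had r from 0.412 to 0.514 and others from -0.292 to -0.131. Deviations from a group mean cancel out within the group, so the negative values follow from the positive ones and are no separate evidence. The main fit used no block all the same, so its calls leave this likeness out, and the number entered as a block in alternative fits only. The labels do not say what a number shares. No library was a copy of another, since replicates gave a chi-square of 90.1 to 132 for each degree of freedom.

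The genes and lists were chosen with earlier results of these data known. All 10 interference genes were described, and of each list the genes called plus the 2 with the largest values, with NUF2 and the 3 genes most like AGO2 and TNRC6B. Of these, 1 listed gene is not reported here. Genes named only for the blocked fit, and MIR22HG, MIR31HG, MIR222HG, PIWIL2 and PIWIL4, were chosen after their values were seen. So were HNRNPA1, ADAR, PRKRA and TENT4A.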

Additional observations from a re-analysis of the deposited data

How the results depend on the processing

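DICER1 kept its direction and stayed called in all 20 alternatives with an adjusted p that could test it (log2 fold change -1.38 to -1.09), and NUF2 in all 21 (-3.14 to -2.45). A minimum of 5 FPKM left DICER1 untested, so 0 of the 10 genes were called there. Its mean over all 6 libraries was 4.67 FPKM, from 6.70 FPKM in siCtrl and 2.63 FPKM in siNUF2 cells. The number called was 2 with DESeq2, 2 by the study's rule for DEGs (DICER1 and TNRC6C), 3 with the replicate block (DICER1, AGO2 and DROSHA) and 3 with the count filter of edgeR and the replicate block (DICER1, TNRC6B and TNRC6C), against 1. The block changed no other call of the 10 genes. Of the listed genes, 5 were called, and 9 with the replicate block, 7 with the block and the count filter of edgeR, 3 with the count filter of edgeR, 3 by limma on log2(FPKM + 0.1), 1 with no filter, 0 by the study's rule, 0 to 2 with a library left out and 0 to 1 with the count filter and a library left out. Whole-genome counts moved too, from 468 to 1705 with the block, 972 with DESeq2, 309 with the count filter and 188 with no filter. They are not given for limma or for the fits with a library left out.

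Directions that turned belonged to uncalled values. With a library left out, AGO1 ranged from -0.011 (without siNUF2 library 2) to 0.18, and XPO5 from -0.052 (without siNUF2 library 1) to 0.18, or from -0.055 to 0.19 with the count filter. The AGO3 share was then 96.5% to 112% of its control value (97.7%, 98.6% and 96.5% in the fits that turned), the AGO4 share 93.4% to 102% and the summed processing level 93.9% to 102%. The cause of these changes was not tested. Within replicate numbers, the sign-flip test of 3 pairs cannot go below 0.25. Depth limits TNRC6C most, at 78 counts in its lowest library.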
